A study of Mus musculus with 3 samples.

Results

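The genes of SNARE proteins and of the machinery for regulated exocytosis were followed in single cells from the mouse pituitary's intermediate lobe (IL). They were 38 named genes of 17775 with a row in any of the 3 deposited tables, and all 38 had a row in every table. Counts were unique molecular identifiers (UMIs, 1 for each captured transcript) from 3′ droplet libraries, summed over the cells of a class and scaled to a common total (CPM). A CPM value from such a library does not depend on transcript length. Levels of different genes are set side by side on that basis, and other differences in capture between genes were not checked.

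There was 1 library per genotype. WT carried Sox9iresCreERT2/+, P27NULL carried Sox9iresCreERT2/+;p27-/-, and S2CK carried Sox9iresCreERT2/+;Sox2fl/+;p27-/-. All mice thus had the tamoxifen-inducible Cre at Sox9, a gene active in stem cells (SCs), which limits recombination of Sox2 to the cells that use Sox9 and their progeny. They were 3 months old. Tamoxifen was given at 4 weeks by the labels and at birth by the study's text.

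Melanotrophs, the main endocrine cells of the IL, release the peptides cut from the Pomc precursor through dense-core granules. Granules are tethered by Rab3 and Rab27 GTPases and their effectors, primed by Munc13, CAPS and RIM proteins, and fused when the vesicle SNARE (VAMP) zips together with SNAP25 and syntaxin on the plasma membrane. Synaptotagmins sense calcium and trigger that last step, complexins clamp and then assist it, and NSF with its SNAP adaptors takes used SNARE complexes apart. Synapsins, SV2 and synaptophysin belong to the vesicle membrane or its surface.

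Melanotrophs were the 7694 cells in which Pomc made up 5% or more of the UMIs and in which Pcsk2, the prohormone convertase that cuts the precursor to melanotropin, had 2 or more UMIs. They numbered 1245 in WT, 3481 in P27NULL and 2968 in S2CK. The 6 listed melanotroph markers that the gate did not use, Pax7 among them, were all detected in them, with a summed level of 1053 to 1542 CPM against 47.1 to 87.3 CPM in other endocrine cells. Other classes came from clusters named by markers, in a clustering that left the members out. Other endocrine cells (corticotroph-like, gonadotroph-like and Pou1f1-lineage-like) numbered 269, 250 and 136 in the same order of libraries, SC-like cells 127, 99 and 77, and other non-endocrine cells (connective tissue, endothelial, macrophage, T or NK and pituicyte) 311, 163 and 194.

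The class sums held 6169078, 13431765 and 16921650 UMIs for melanotrophs and 345050 to 1081799 UMIs for the other classes, so the levels outside melanotrophs carry the wider counting error. Pomc stood at 1.96% to 5.64% of its melanotroph level in SC-like and other non-endocrine cells, which gives the level that free melanotroph RNA could add there. The libraries shared 2 to 4 barcodes. Cdkn1b, the gene of p27, had 33.2, 29.3 and 16.8 CPM in melanotrophs of WT, P27NULL and S2CK, so its 3′ counts did not set the library labelled P27NULL apart from WT. In the same order Xist had no row, 151 CPM and 976 CPM and the Y-linked genes 90.5 CPM, 68.4 CPM and no row. By these counts WT had the pattern of male cells only, S2CK that of female cells only, and P27NULL both. The study's supplement lists males for WT and pools of a male and a female for P27NULL and S2CK.

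Summed over the 38 genes, melanotrophs and the other endocrine cells stood together and well above the rest. Melanotrophs held 2169, 2395 and 2006 CPM. Other endocrine cells held 2054, 2047 and 1777 CPM, so the endocrine classes overlapped. The pooled value covers unlike types. Corticotroph-like cells held 2634, 2574 and 2535 CPM, above melanotrophs in every library. Gonadotroph-like cells held 1759, 1854 and 1731 CPM and Pou1f1-lineage-like cells 1529, 1753 and 1033 CPM. Pomc alone took 174236, 136916 and 140895 CPM in melanotrophs, a part of the total to which the other genes are scaled. SC-like cells held 608 to 720 CPM and other non-endocrine cells 521 to 582 CPM, against 51.6 to 108 CPM and 42.4 to 113 CPM that free RNA would give. Taken singly, 21 of the 38 members had counting intervals above the free-RNA level in all 3 libraries of SC-like cells. In other non-endocrine cells 12 did. The remaining members did not clear that level in every library. The heat map shows this split gene by gene.

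**Figure D1:**
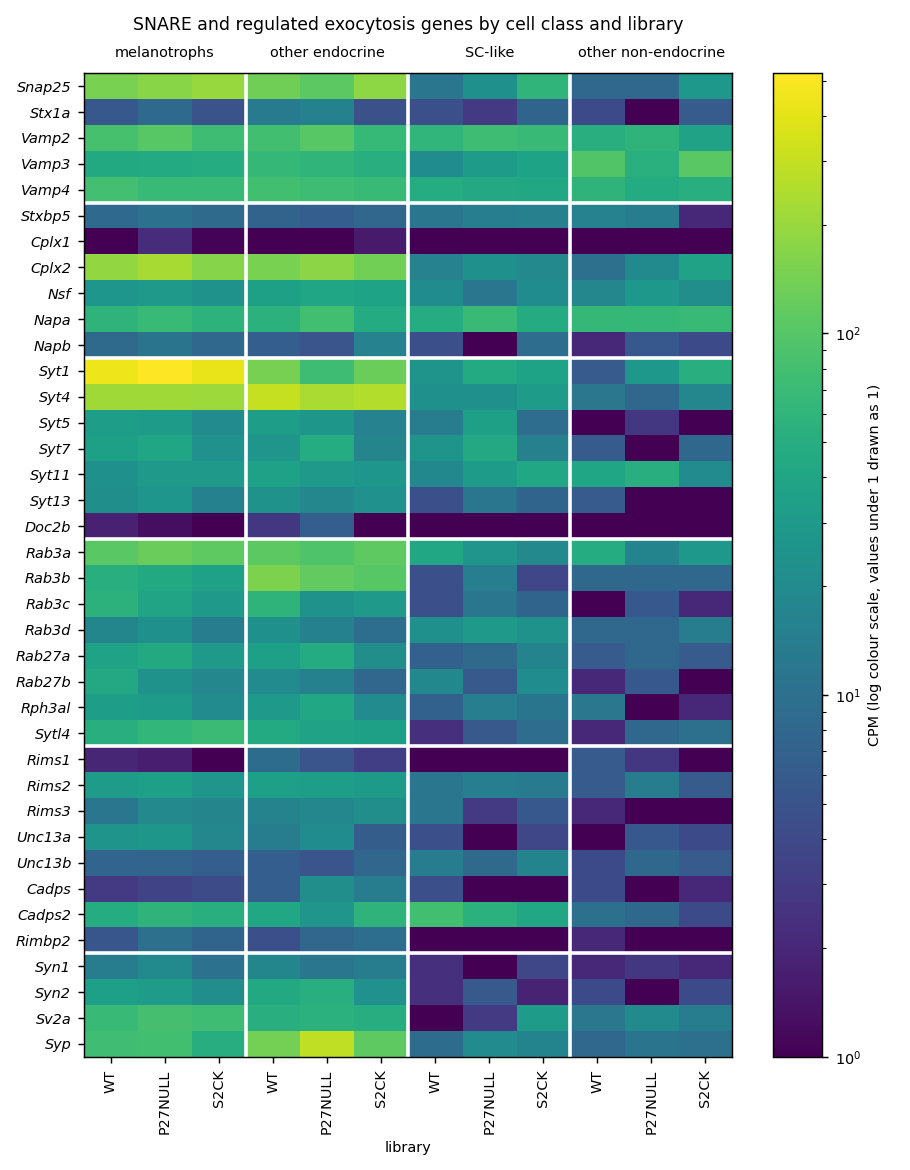
Level of each of the 38 genes (rows, grouped by role as in the text) in the 4 cell classes of the 3 libraries (columns), as CPM of the summed UMIs on a log colour scale, with values under 1 drawn as 1. Syt1 is the brightest row in melanotrophs, at 423 to 524 CPM, while Vamp2, Vamp4 and Napa keep much the same colour in every class.

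The first question was which of these genes separate melanotrophs from cells that do not secrete hormone. Across 8216 genes that passed the filter on low counts, 28 of the 38 members could be tested with the library as a term. A call needed an adjusted p under 0.05 and a log2 fold change of at least 1. Against SC-like cells 18 of the 28 were higher in melanotrophs, where 12.4% of all genes were, and 0 were lower, where 18.3% of all genes were. Against other non-endocrine cells 21 were higher, with 16.5% of all genes, and 0 were lower, with 21.3%. The median log2 fold change of the tested members was 1.66 and 2.79, against 0.02 for all genes in both comparisons. The melanotroph libraries lay wholly above the SC-like ones for 20 of the 28 (17.6% of all genes) and wholly below for 0 (34.2%), and above the other non-endocrine ones for 24 (27% of all genes) and below for 1, Vamp3 (31.5%). Members could pass the filter through their level in melanotrophs or in other endocrine cells alone, so these shares describe the 28 and not all 38. The list was also chosen with earlier results of these data known. The shares of all genes therefore give a scale for the counts and are no test of the list.

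The 10 untested genes were Stx1a, Stxbp5, Rims1, Unc13b, Cplx1, Cadps, Doc2b, Napb, Syn1 and Rimbp2, each below 21 CPM in melanotrophs of every library.

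Among the SNARE proteins Snap25, the plasma membrane SNARE that contributes a pair of helices to the complex, set melanotrophs apart. It stood at 149, 173 and 202 CPM in melanotrophs (WT, P27NULL and S2CK, the order used throughout), against 11.6, 23.2 and 60.4 CPM in SC-like cells and 8.07, 8.36 and 28.4 CPM in other non-endocrine cells. No library of the melanotrophs overlapped the other 2 classes, and the log2 fold change was 2.71 ± 0.27 (SE of the fit, 3 libraries, adjusted p = 1e-07) and 3.64 ± 0.32 (adjusted p = 1.02e-08). The counting intervals of SC-like cells lay above the level that free RNA would give in all 3 libraries. In S2CK that level was 10.8 CPM and the 95% counting interval 41.3 to 85.3 CPM.

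The vesicle SNAREs were far more even. Vamp2, the VAMP of regulated granules, had 75.3 to 104 CPM in melanotrophs, 62.4 to 75.4 CPM in SC-like cells and 36.5 to 58.5 CPM in other non-endocrine cells, with log2 differences of 0.60 ± 0.16 and 0.93 ± 0.17 that passed the test but not the fold (adjusted p = 0.00334 and 9.49e-05). Vamp4, which works on traffic from the trans-Golgi network, had 68.3 to 81.4 CPM in melanotrophs and stayed under the fold in both comparisons. Vamp3, the VAMP of constitutive and recycling traffic, went the other way against other non-endocrine cells. It had 44.9, 46.2 and 48.7 CPM in melanotrophs and 94.8, 53.0 and 106 CPM in those cells, a log2 difference of -0.78 ± 0.19 (adjusted p = 0.00168) that stayed under the fold. Its level in endothelial-like cells was 109 to 239 CPM. Stx1a, the partner syntaxin, was low in every class, at 5.02 to 8.41 CPM in melanotrophs and 0 to 7.56 CPM outside endocrine cells.

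Of the SNARE regulators only Cplx2 passed among the 3 tested. This complexin had 191, 229 and 167 CPM in melanotrophs against 16.2, 23.2 and 18.9 CPM in SC-like cells, a log2 fold change of 3.59 ± 0.26 (adjusted p = 8.16e-10), and of 3.20 ± 0.25 against other non-endocrine cells (adjusted p = 1.67e-09). It took 99.0% to 99.7% of complexin UMIs in melanotrophs, with Cplx1 at 2.23 CPM or less. Nsf, the ATPase, and Napa, its main adaptor, are used by all fusion steps of a cell. Napa had 57.7 to 69.8 CPM in melanotrophs, 47.2 to 69.6 CPM in SC-like cells and 64.1 to 69.0 CPM in other non-endocrine cells, and its log2 difference from the last was -0.02 ± 0.16. Nsf differed by 0.81 ± 0.27 and 0.36 ± 0.26, both under the fold. Stxbp5, the tomosyn gene, and Napb were below 17 CPM in all 4 classes.

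Synaptotagmins carried the largest levels and the largest contrasts. Syt1, the fast calcium sensor, was the most abundant member in melanotrophs, with 452, 524 and 423 CPM and 95% counting intervals of 435 to 469, 512 to 537 and 413 to 433 CPM. SC-like cells had 25.4, 46.4 and 37.8 CPM, a log2 fold change of 3.97 ± 0.33 (adjusted p = 7.61e-09). Other non-endocrine cells had 6.05, 27.9 and 50.7 CPM, a log2 fold change of 4.15 ± 0.34 (adjusted p = 4.62e-09). Free RNA would give 8.84, 13.6 and 23.9 CPM of Syt1 in other non-endocrine cells, and only 1 library, S2CK, had a counting interval above that level. Expression of Syt1 in those cells was thus not detectable at this depth in WT and P27NULL. Syt4, a synaptotagmin of dense-core granules that binds calcium weakly, followed with 217, 216 and 207 CPM in melanotrophs, with log2 fold changes of 3.27 ± 0.20 and 4.11 ± 0.24.

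The minor synaptotagmins split by partner class. Syt5 and Syt7, a granule sensor and a slow high-affinity sensor, had 20.7 to 33.1 CPM and 23.9 to 39.4 CPM in melanotrophs, and they were higher than in other non-endocrine cells by 5.29 ± 0.69 and 2.71 ± 0.45 on the log2 scale (adjusted p = 2.39e-06 and 4.04e-05). Only 1 UMI of Syt5 and 7 of Syt7 were counted in those cells, and over the alternatives the differences ranged from 2.91 to 9.53 and from 1.49 to 3.46. Against SC-like cells neither reached the fold, with log2 differences of 0.93 ± 0.32 and 0.55 ± 0.29, and Syt7 did not pass the test (adjusted p = 0.13). Syt13, a member without calcium binding, was higher in both comparisons, by 1.71 ± 0.46 and 3.34 ± 0.64, the latter on 3 UMIs in other non-endocrine cells and between 1.48 and 9.43 over the alternatives. Syt11, which also lacks calcium binding, did not differ past the test from either class, with 23.3 to 29.9 CPM in melanotrophs and its highest level, 202 CPM, in the WT pituicyte-like cells. Doc2b, another calcium-binding protein, was at 1.78 CPM or less in melanotrophs.

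Of the 8 Rab GTPases and effectors, 7 were higher in melanotrophs in both comparisons, all but Rab3d. Rab3a, the most abundant, had 106, 125 and 112 CPM in melanotrophs, 41.6, 26.1 and 18.9 CPM in SC-like cells and 48.4, 16.7 and 28.4 CPM in other non-endocrine cells, with log2 fold changes of 2.28 ± 0.25 and 1.93 ± 0.24. Sytl4, the Rab27 effector granuphilin that docks granules, had 50.9, 62.8 and 71.3 CPM against 2.31 to 9.44 CPM and 2.02 to 10.1 CPM, with log2 fold changes of 3.60 ± 0.37 (adjusted p = 1.61e-07) and 3.29 ± 0.37 (adjusted p = 2.94e-07). Sytl4 thus kept every melanotroph library far above every library of both classes.

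Rab3b and Rab3c had 36.2 to 50.4 CPM and 29.8 to 55.8 CPM in melanotrophs, at most 14.5 CPM and 11.6 CPM in SC-like cells, and log2 fold changes there of 2.91 ± 0.34 and 2.67 ± 0.41. Rab27a, with 37.3, 44.8 and 29.1 CPM, and Rph3al, a Rab3 and Rab27 effector, with 32.7, 31.4 and 20.7 CPM, were higher than SC-like cells by 1.91 ± 0.32 and 1.61 ± 0.39 on the log2 scale, and both by 2.52 than other non-endocrine cells. Rab27b had 43.3, 24.9 and 18.1 CPM in melanotrophs and 18.5, 5.80 and 20.8 CPM in SC-like cells, so the groups overlapped. Its call against SC-like cells (log2 1.06 ± 0.36, adjusted p = 0.02) was lost without WT (0.74, adjusted p = 0.246), without P27NULL (0.81, adjusted p = 0.0979) and with DESeq2 (adjusted p = 0.0772). Rab3d was at 14.4 to 23.3 CPM in melanotrophs and 23.1 to 29.0 CPM in SC-like cells, a log2 difference of -0.23 ± 0.31 that did not pass the test.

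The priming factors were sparse except Cadps2. This CAPS protein had 48.6, 58.3 and 51.1 CPM in melanotrophs and 78.6, 55.1 and 41.6 CPM in SC-like cells, which overlapped (log2 0.14 ± 0.25, adjusted p = 0.66), but 10.1, 8.36 and 4.06 CPM in other non-endocrine cells (log2 2.93 ± 0.42, adjusted p = 6.68e-06). Unc13a, the Munc13 primer, had 25.6, 27.8 and 18.3 CPM in melanotrophs and at most 5.57 CPM in both other classes, where 4 UMIs were counted in each, with log2 fold changes of 3.17 ± 0.55 and 3.06 ± 0.56. Rims2, a RIM scaffold, with 31.4, 34.2 and 26.0 CPM, was higher by 1.47 ± 0.29 and 1.97 ± 0.33. Rims3, a short RIM form, with 11.7, 18.8 and 17.4 CPM, was higher by 1.47 ± 0.46 and 4.44 ± 0.81. The latter rests on 1 UMI in other non-endocrine cells and lay between 2.59 and 9.27 over the alternatives. The Rims3 call against SC-like cells was lost without P27NULL (1.08, adjusted p = 0.127) and without S2CK (1.24, adjusted p = 0.112). Rims1, Unc13b, Cadps and Rimbp2, a RIM-binding protein, ranged from 0.53 to 9.98 CPM in melanotrophs.

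All 3 tested vesicle membrane genes were higher in melanotrophs in both comparisons. Sv2a, a vesicle glycoprotein, had 67.9, 83.5 and 75.4 CPM in melanotrophs against 0, 2.90 and 32.1 CPM in SC-like cells (log2 2.73 ± 0.40), where the WT count of 0 allows up to 6.94 CPM. Syp, synaptophysin, had 77.5, 78.7 and 49.5 CPM against 9.25, 20.3 and 17.0 CPM (log2 2.37 ± 0.30). Syn2, a synapsin, had 34.4, 30.9 and 21.9 CPM against 1.89 to 5.80 CPM (log2 3.46 ± 0.46). Against other non-endocrine cells the log2 fold changes of the 3 genes were 2.43 ± 0.40, 2.88 ± 0.33 and 3.36 ± 0.47. Syn1 had 14.1, 19.95 and 10.3 CPM in melanotrophs and at most 3.78 CPM in both other classes, and was not tested.

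**Figure D2:**
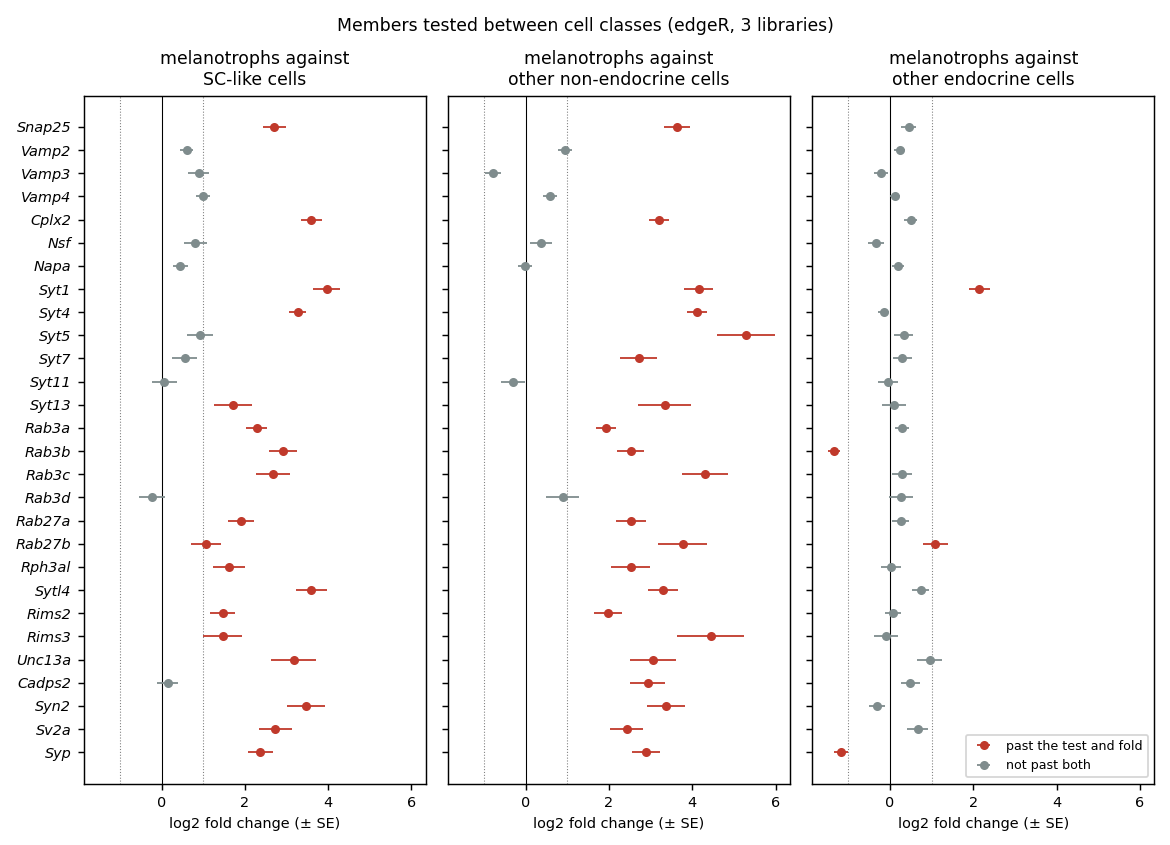
Log2 fold change (± SE, edgeR over the 3 libraries) of the 28 tested members in melanotrophs against SC-like, other non-endocrine and other endocrine cells, with dotted lines at the fold of 1 and called members in red. Nearly all points lie right of 0 in the first 2 panels, with 18 and 21 called, while the third gathers around 0 with Syt1 and Rab27b to the right and Rab3b and Syp to the left.

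The second question was what distinguishes melanotrophs from the other hormone cells. Of the 28 tested members 4 were called. Syt1 (log2 2.14 ± 0.25, adjusted p = 3.22e-06) and Rab27b (1.09 ± 0.30, adjusted p = 0.0144) were higher in melanotrophs, where 3.89% of all genes were, and Rab3b (-1.35 ± 0.15, adjusted p = 1.7e-06) and Syp (-1.18 ± 0.16, adjusted p = 2.05e-05) were lower, where 5.26% of all genes were. The median of the tested members was 0.24, against 0.05 for all genes. Melanotroph libraries lay wholly above for 3 members (11.2% of all genes) and wholly below for 5 (18.0%). Cplx2 (0.50 ± 0.16, adjusted p = 0.0319), Unc13a (0.95 ± 0.30, adjusted p = 0.0352) and Sytl4 (0.74 ± 0.20, adjusted p = 0.0141) passed the test below the fold, all higher in melanotrophs.

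The other endocrine class pools cell types in different shares, so the fit was repeated, after the data had been seen, with its 3 types apart. Gonadotroph-like cells gave 34.2%, 61.2% and 24.4% of the UMIs of the class and 20.1%, 50.8% and 23.5% of its cells. Syt1 was higher in melanotrophs than in each type. Corticotroph-like cells, which also make Pomc, had 259, 175 and 266 CPM of Syt1 (log2 1.24 ± 0.22, adjusted p = 0.000204), Pou1f1-lineage-like cells had 134, 98.8 and 46.7 CPM (2.07 ± 0.29, adjusted p = 6.37e-06), and gonadotroph-like cells had 16.2, 23.4 and 32.5 CPM (4.49 ± 0.33, adjusted p = 1.14e-11). The gonadotroph-like values rest on 6, 11 and 5 UMIs, and in WT and P27NULL their intervals reach down to the 8.03 and 12.5 CPM of free RNA.

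Rab3b had its highest levels in corticotroph-like cells and Syp in gonadotroph-like cells. Rab3b had 50.4, 45.0 and 36.2 CPM in melanotrophs and 199, 212 and 221 CPM in corticotroph-like cells, a log2 difference of -1.97 ± 0.23 (adjusted p = 2.59e-07). In gonadotroph-like cells it had 162, 83.1 and 19.5 CPM (-1.05 ± 0.26, adjusted p = 0.00427), the S2CK value on 3 UMIs and below melanotrophs, and it did not differ past the test from Pou1f1-lineage-like cells (-0.41 ± 0.38, adjusted p = 0.644). Syp was at 77.5, 78.7 and 49.5 CPM in melanotrophs and at 244, 403 and 247 CPM in gonadotroph-like cells, a difference of -2.01 ± 0.15 (adjusted p = 1.8e-11), with no passing difference from the other two types (-0.39 ± 0.18, adjusted p = 0.206, and 0.03 ± 0.26, adjusted p = 0.959). Its call against the pooled class was lost without P27NULL (-0.90, adjusted p = 0.0044).

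Rab27b stood at 0 to 23.0 CPM in the 3 types and passed against no single one of them, with adjusted p of 0.169, 0.0525 and 0.277. Its call against the pooled class was lost without WT (1.05, adjusted p = 0.142), with DESeq2 (1.04, adjusted p = 0.106) and without the library term (1.02, adjusted p = 0.139). Taken type by type, 2 members were higher and 1 lower against corticotroph-like cells (3.2% and 3.46% of all genes), 2 higher and 2 lower against gonadotroph-like cells (5.25% and 6.72%), and 1 higher and 0 lower against Pou1f1-lineage-like cells (3.27% and 2.68%). The additional calls were Syt7, higher than in corticotroph-like cells (1.82 ± 0.44), and Cadps2, higher than in gonadotroph-like cells (1.10 ± 0.33). They rest on 4, 6 and 0 UMIs of Syt7 and 10, 11 and 5 UMIs of Cadps2 in those cells. Syt4 was higher in corticotroph-like cells, at 421, 442 and 437 CPM, by 0.74 on the log2 scale, under the fold (-0.74 ± 0.17 in melanotrophs, adjusted p = 0.00313).

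**Figure D3:**
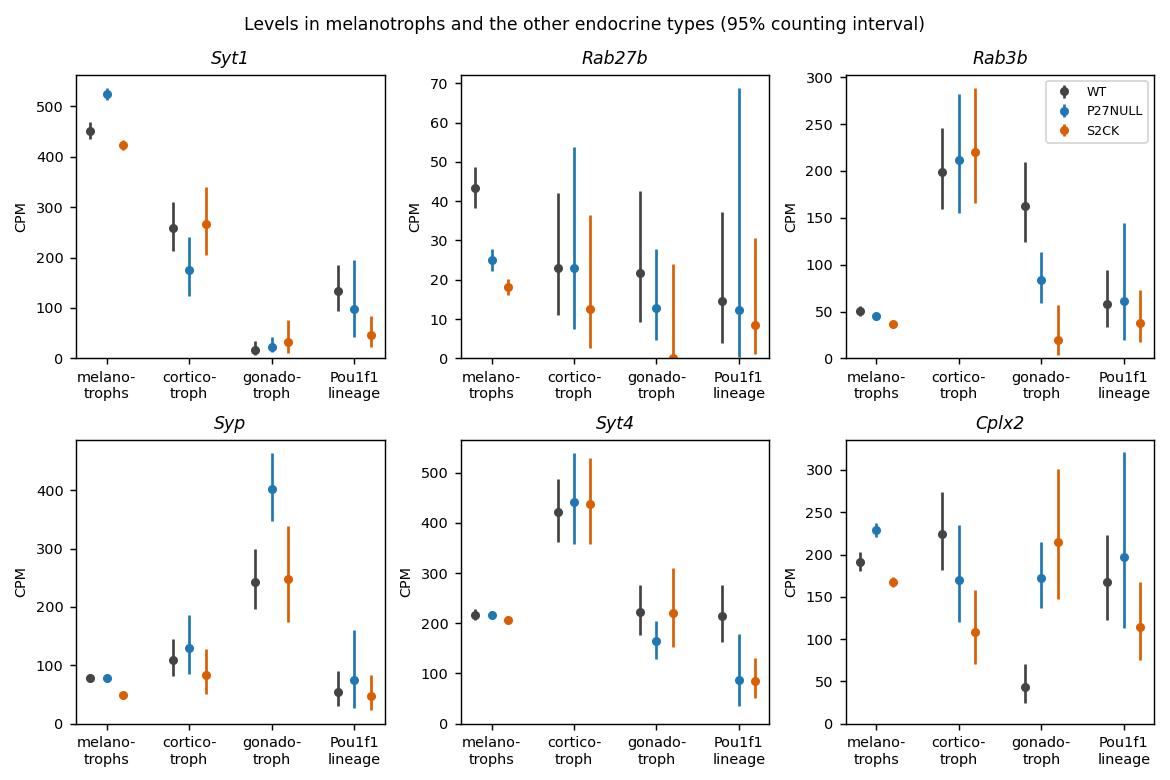
CPM of 6 members (1 panel each, linear axis from 0) in melanotrophs and the 3 other endocrine types, 1 point per library with its 95% counting interval. Syt1 is highest in melanotrophs in all 3 libraries, Rab3b and Syt4 are highest in corticotroph-like cells and Syp in gonadotroph-like cells, and the intervals of Rab27b in the 3 types overlap those of melanotrophs except for Pou1f1-lineage-like cells in WT.

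Within some gene families the shares of the paralogues differed between classes. Syt1 took 57.7%, 60.4% and 58.8% of the UMIs of the 6 synaptotagmins in melanotrophs of WT, P27NULL and S2CK, and Syt4 24.8% to 28.8%. In the other endocrine cells Syt4 led, with 53.3%, 54.4% and 54.5% and Syt1 at 17.2% to 27.4%. The exact 95% intervals of the 2 classes did not meet in any library. Among the Rab3 genes, Rab3a led in melanotrophs with 46.1%, 53.9% and 58.2%, and Rab3b took 18.8% to 22.0%. In other endocrine cells Rab3b took 44.3%, 46.6% and 40.9% and Rab3a 31.8%, 37.3% and 44.0%, so Rab3a still had the larger share in S2CK. In SC-like cells Rab3d took 31.2% to 44.8% of the Rab3 UMIs, on 10 to 13 UMIs, compared with 7.47% to 10.1% in melanotrophs. Cadps2 took 92.5% to 94.3% of the CAPS UMIs in melanotrophs, and 86.8%, 54.1% and 80.4% in other endocrine cells, so it led in both classes. The shares of Vamp2 and Vamp4 in other endocrine cells had intervals that overlapped those of melanotrophs in every library.

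**Figure D4:**
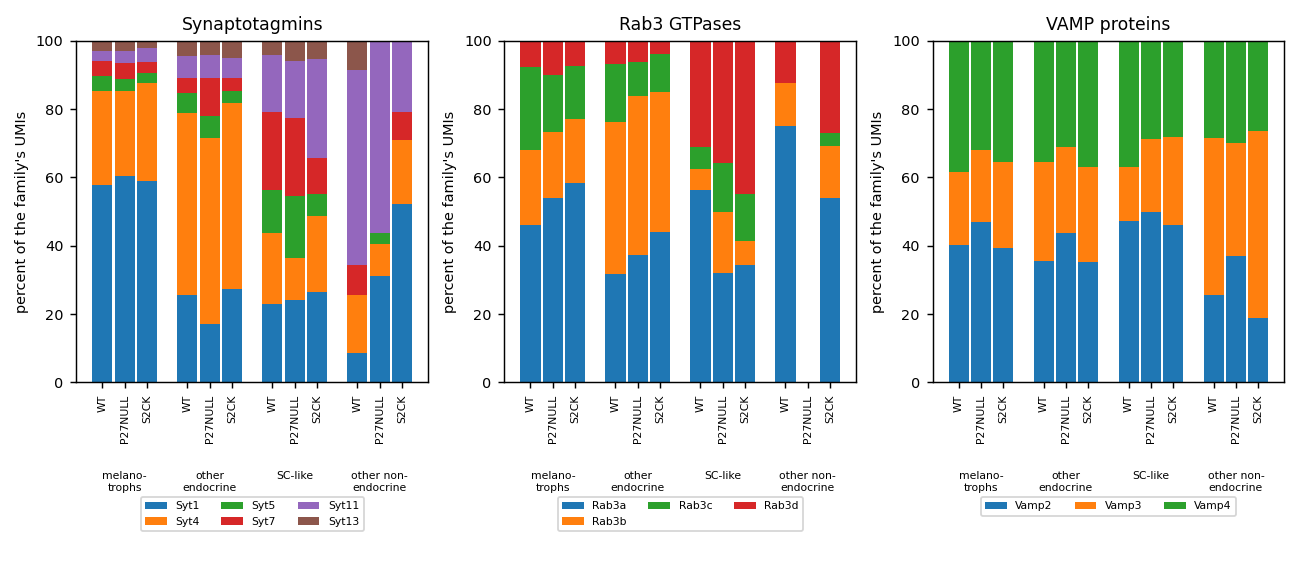
Share of the UMIs of 3 gene families taken by each paralogue (stacked bars, percent) in the 4 cell classes of the 3 libraries, where a family had at least 20 UMIs. In every library the Syt1 share is smaller and the Syt4 and Rab3b shares are larger in other endocrine cells than in melanotrophs.

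The promoters of the genes that these comparisons turn on are shown with 3 motifs known from hormone cells, the cyclic AMP response element (TGACGTCA, the same on both strands), a site of T-box factors such as TBX19 (TCACACC or GGTGTGA) and the NEUROD1 E-box (CATCTG or CAGATG). No motif is contained in another. The sequences are the 250 bases before a RefSeq start on GRCm38.p6, written along the gene, and 28 of the 38 members had an entry. Syt1, Rab3b and Syp are shown because they moved in opposite directions between endocrine cells, and Rab27a, Rims3 and Syn1 because they hold a motif, in capitals.
Syt1, chr10:109010976-109011225, minus strand: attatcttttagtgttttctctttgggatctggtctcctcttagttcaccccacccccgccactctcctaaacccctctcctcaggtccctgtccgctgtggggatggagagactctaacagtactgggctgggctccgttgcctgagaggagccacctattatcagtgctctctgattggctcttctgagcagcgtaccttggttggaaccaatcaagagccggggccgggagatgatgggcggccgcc
Rab3b, chr4:108878820-108879069, plus strand: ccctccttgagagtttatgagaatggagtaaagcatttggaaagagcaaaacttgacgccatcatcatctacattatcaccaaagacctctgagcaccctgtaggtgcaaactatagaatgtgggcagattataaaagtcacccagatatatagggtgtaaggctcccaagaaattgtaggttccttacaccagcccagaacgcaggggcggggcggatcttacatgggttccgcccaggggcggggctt
Syp, chrX:7638330-7638579, plus strand: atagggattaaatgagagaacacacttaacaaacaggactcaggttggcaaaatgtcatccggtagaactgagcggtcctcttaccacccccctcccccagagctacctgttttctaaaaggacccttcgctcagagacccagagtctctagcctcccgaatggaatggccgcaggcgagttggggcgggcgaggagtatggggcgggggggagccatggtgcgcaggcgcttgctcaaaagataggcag
Rab27a, chr9:73044560-73044809, plus strand: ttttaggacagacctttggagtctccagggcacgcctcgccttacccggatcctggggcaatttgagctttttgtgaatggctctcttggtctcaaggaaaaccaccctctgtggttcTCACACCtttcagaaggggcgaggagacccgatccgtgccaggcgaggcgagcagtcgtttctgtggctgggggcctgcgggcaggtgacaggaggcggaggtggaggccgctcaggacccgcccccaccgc
Rims3, chr4:120854549-120854798, plus strand: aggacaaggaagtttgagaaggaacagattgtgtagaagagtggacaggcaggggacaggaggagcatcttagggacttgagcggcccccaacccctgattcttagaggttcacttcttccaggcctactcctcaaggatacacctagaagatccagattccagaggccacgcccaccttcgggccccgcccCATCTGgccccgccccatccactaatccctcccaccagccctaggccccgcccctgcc
Syn1, chrX:20920919-20921168, minus strand: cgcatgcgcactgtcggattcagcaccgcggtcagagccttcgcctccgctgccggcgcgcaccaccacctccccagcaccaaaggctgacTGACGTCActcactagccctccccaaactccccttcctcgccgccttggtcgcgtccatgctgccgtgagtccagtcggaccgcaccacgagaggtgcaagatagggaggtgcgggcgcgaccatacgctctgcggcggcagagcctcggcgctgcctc
Among the 28 members the cyclic AMP element stood in 1 gene (Syn1, its first base 159 before the start), the T-box site in 1 (Rab27a, 132 before) and the E-box in 3 (Rims3, 58 before, Rimbp2 and Syn2). Over all 27025 genes of the table the shares were 1.77%, 3.84% and 16.3%. The windows shown for Syt1, Rab3b and Syp held none of the 3 motifs. Syt1 and Rab27a each have another listed start that is not shown.

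Other genes of the same process, from a list of 61 that are no members (57 with a row, 28 tested), were called in both directions. Against SC-like cells 7 were higher and 6 lower in melanotrophs (median log2 0.26), against other non-endocrine cells 8 and 10 (median 0.13), and against other endocrine cells 2 and 3 (median -0.14). The largest contrasts were of genes near 0 in melanotrophs. Mlph, the Rab27 effector melanophilin, was at 0.06 to 0.97 CPM in melanotrophs and 28.3 to 32.4 CPM in SC-like cells (log2 -6.33 ± 0.66), and Stxbp6, amisyn, at 0.65 to 1.41 CPM against 55.5 to 60.4 CPM (-5.54 ± 0.43). Syn3, a synapsin, and Syngr1, synaptogyrin, differed by -4.61 ± 0.69 and -3.39 ± 0.39. Ppfia4, a liprin, differed from other non-endocrine cells by -5.90 ± 0.34, and there too Syn3, Stxbp6 and Syngr1 followed, with log2 differences of -4.49, -4.48 and -4.46. Sv2b went the other way, at 39.4, 54.6 and 59.1 CPM in melanotrophs and 12.9, 7.82 and 28.6 CPM in other endocrine cells (log2 1.83 ± 0.29, adjusted p = 0.00014). In that comparison Syt17, Syngr1 and Stxbp6 differed by -2.67 ± 0.39, -2.23 ± 0.40 and -2.22 ± 0.63.

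SNAREs of constitutive traffic and the exocyst, 26 genes of which 22 were tested, were nearly level between classes, with median log2 differences of 0.17, -0.02 and 0.10. Sec22b, a SNARE between endoplasmic reticulum and Golgi, was called higher in melanotrophs than in SC-like and other non-endocrine cells (105 to 108 CPM against 55.5 to 64.2 CPM and 40.6 to 70.6 CPM). Stx16, a Golgi syntaxin, was lower in melanotrophs in all 3 comparisons, at 10.4, 17.1 and 21.0 CPM, and Stx18 was lower than in SC-like cells (log2 -2.16 ± 0.17).

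The last question was whether these genes differ between genotypes within melanotrophs. With 1 library per genotype no test was possible, and a member counted as past the fold when its log2 CPM ratio was at least 0.5 in size, over genes with 50 or more UMIs in both sums together. That left 35 members, without Cplx1, Doc2b and Rims1. The median log2 ratio was 0.24 for P27NULL against WT, -0.37 in S2CK relative to P27NULL and -0.18 in S2CK relative to WT, beside 0.08, -0.16 and -0.06 for all genes. These comparisons share libraries and are not independent. In melanotrophs the median UMIs per cell (4298, 2875 and 5060), the median mitochondrial share (5.34%, 4.76% and 7.56%) and the sex of the cells moved with genotype as well, and their part in the results was not tested.

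In P27NULL against WT, 4 members were past the fold upward, with 11.0% of all genes, and 2 downward, with 3.92%. Rab27b went from 43.3 to 24.9 CPM, a log2 ratio of -0.80 (95% counting interval -1.03 to -0.56), and Rab3c, another Rab of secretory vesicles, from 55.8 to 38.6 CPM (-0.53, -0.73 to -0.33). Upward were Rimbp2 (5.35 to 9.98 CPM, 0.90), Rims3 (11.7 to 18.8 CPM, 0.69), Stx1a (5.67 to 8.41 CPM, 0.57) and Syn1 (14.1 to 19.95 CPM, 0.50), all genes of low level, and the interval of Stx1a reached 0.01. Syt1 (0.21), Snap25 (0.21) and Cplx2 (0.26) lay near one another.

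In S2CK against P27NULL no member was past the fold upward (5.8% of all genes) and 10 were downward (18.8%). The 10 held 3 of 6 calcium sensors and C2 domain proteins, 3 of 8 Rab GTPases and effectors and 2 of 4 vesicle membrane genes. SNARE proteins gave 1 of 5, priming factors 1 of 7 and SNARE regulators 0 of 5. Syt13 went from 26.8 to 15.5 CPM (log2 -0.79, -1.02 to -0.55), Syt7 from 39.4 to 23.9 CPM (-0.72, -0.91 to -0.53) and Syt5 from 32.2 to 20.7 CPM (-0.64, -0.84 to -0.43), while the major Syt1 and Syt4 stood at -0.31 and -0.06. Syn1 went from 19.95 to 10.3 CPM (-0.95, -1.23 to -0.67) and Syp from 78.7 to 49.5 CPM (-0.67, -0.80 to -0.54), both on the X chromosome. Stx1a (-0.74), Rab3d (-0.70), Rab27a (-0.62), Unc13a (-0.60) and Rph3al (-0.60) were the others. With P27NULL limited to female cells the median of all genes moved from -0.16 to -0.06 and that of the members from -0.37 to -0.34. There 11 members were downward and 9 lay above 0 (44.7% of all genes), compared with 4 (34.4%) over all cells. Counting intervals wholly below 0 fell from 25 members to 16, with 647 cells left in P27NULL. The ratio was then -0.53 for Syn1, -0.30 for Rab27a, -0.25 for Unc13a and -1.01 for Syt7. That of Syp stayed within its counting interval over all cells. With TMM factors, which moved the median of all genes from -0.16 to -0.03, 7 were downward, without Rab27a (-0.49), Unc13a (-0.47) and Rph3al (-0.47).

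Against WT, S2CK had 2 members past the fold upward (8.34% of all genes) and 8 downward (11.5%). By the Xist and Y-linked counts this comparison also set female against male cells, and no version within a sex was possible. Genotype and sex cannot be told apart in it. Rab27b had the largest ratio, from 43.3 to 18.1 CPM (-1.26, -1.50 to -1.02), followed by Rab3c from 55.8 to 29.8 CPM (-0.90, -1.11 to -0.70). Rab27b thus took 53.7% of the Rab27 UMIs in WT melanotrophs, 35.8% in P27NULL and 38.3% in S2CK, with Rab27a as the rest. Syt5 (-0.67), Rph3al (-0.66), Syn2 (-0.65), Syp (-0.65), Syt7 (-0.56) and Syt13 (-0.55) were also downward. Upward were Rims3 (0.58) and Cadps (2.92 to 4.14 CPM, 0.50, -0.26 to 1.34), the latter on 18 and 70 UMIs.

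Snap25 and Sytl4 were higher in S2CK than in both other libraries, where the medians of the members were below 0. Snap25 had 149, 173 and 202 CPM, with log2 ratios of 0.21, 0.22 and 0.43, and Sytl4, also on the X chromosome, at 50.9, 62.8 and 71.3 CPM, with 0.30, 0.18 and 0.49. Both stayed under the fold in every comparison, while their counting intervals lay above 0. Syt4 was the most even of the abundant members, at 217, 216 and 207 CPM.

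**Figure D5:**
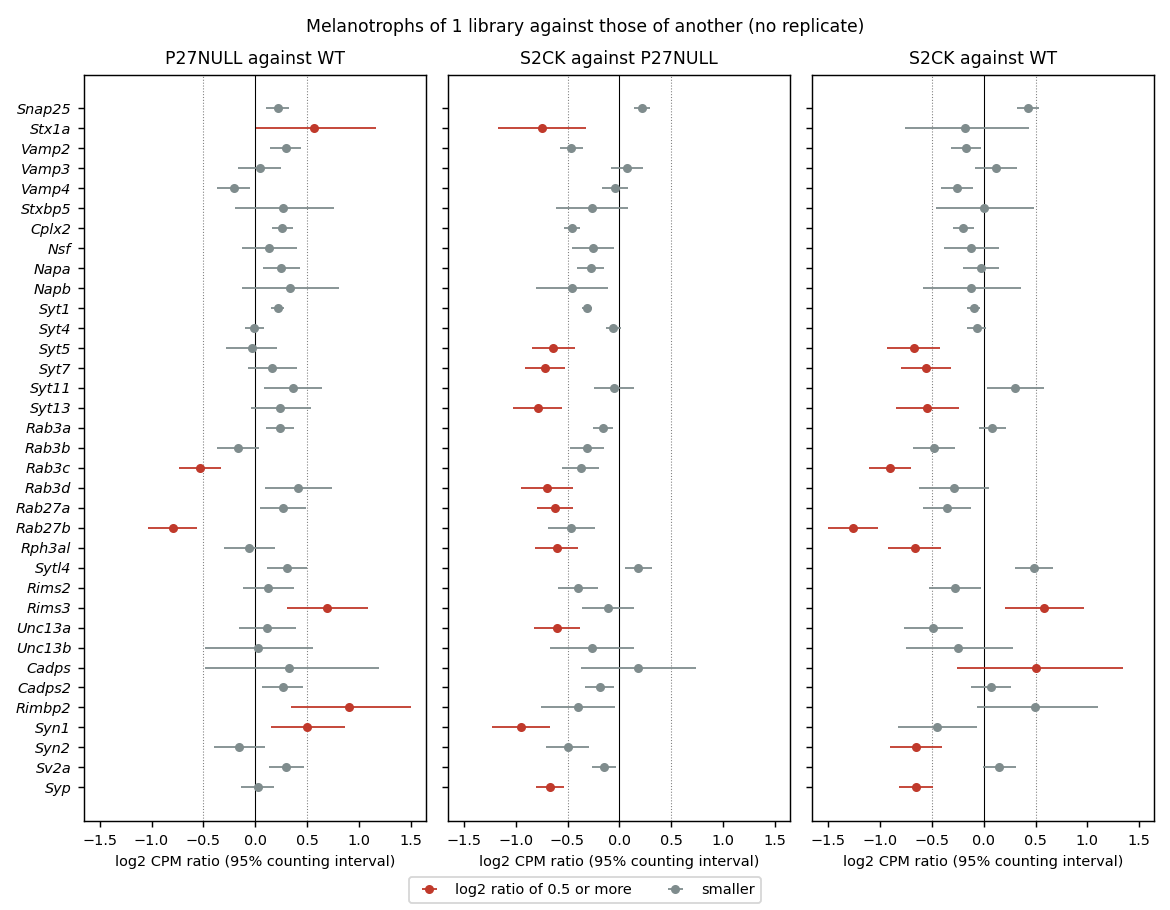
Log2 CPM ratio of 35 members in melanotrophs between pairs of libraries, with 95% counting intervals that leave out any spread between animals, dotted lines at 0.5 and members past it in red. Rab27b and Rab3c lie left of 0 in all 3 panels, and Snap25 and Sytl4 right of 0.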

How the data were processed

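Single cells of the intermediate lobe were measured in 3 droplet libraries, 1 per genotype, of 2020, 4153 and 3488 cells with 8332285, 15588317 and 19239147 UMIs in WT, P27NULL and S2CK. The authors deposited whole-number UMI counts per gene and cell; per the labels and the submitters' processing notes they used Cell Ranger 3.0.2 with STAR 2.5.1b on mm10 and Seurat 3 in R 3.6.0. Cells were used as deposited. Clusters were made with scanpy 1.11.5 (Python 3.11.15) from 2000 variable genes, 20 components and resolution 2, leaving out 127 genes (members, listed genes and sex-linked genes), and named by markers. The doublet caller marked 11, 1 and 0 cells and was not relied on, so the highest doublet scores were left out only as an alternative.

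UMIs were summed per library and class and tested with the edgeR 4.0.16 quasi-likelihood test (R 4.3.3, TMM factors, library as a term, two-sided, Benjamini-Hochberg adjustment over 8216 genes). Every adjusted p is from that test unless DESeq2 1.42.0 is named. The libraries are the replicates there, they differ in genotype, and n is 3. All classes were in 1 fit and shared its estimate of spread. Each SE is the absolute log2 fold change divided by the square root of the F statistic of that fit. It is thus not the spread of 3 single-library differences. Genotypes were compared as log2 CPM ratios with exact conditional 95% intervals, with no test. In P27NULL a cell counted as female with 1 or more Xist UMIs and no Y-linked UMI, and as male with no Xist UMI. Low depth or free RNA could misplace cells, which was not checked. Intervals and limits from a count of 0 (3 counts of the total) cover counting error only. The free-RNA level of a member is its melanotroph CPM times the class's share of the melanotroph Pomc level. Every member is described, and listed genes of other lists are named by the 4 largest changes. The members and lists were chosen with earlier results of these data known. The endocrine types were separated as an alternative chosen after seeing the data. The edgeR fit of the classes was tested on simulated counts with known fold changes. Other alternatives were DESeq2 and its size factors, no filter, no library term, other gates, totals, thinning to 2000 UMIs and leaving out each library.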

Additional observations from a re-analysis of the deposited data

Results flagged for a closer look

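Syt1 moved one way between genotypes in melanotrophs and the other way in the other endocrine cells. In P27NULL against WT its log2 CPM ratio was -0.96 in other endocrine cells (57 and 156 UMIs) and 0.21 in melanotrophs, and in S2CK against P27NULL it was 0.78 and -0.31. Cadps2 had a ratio of 1.17 in other endocrine cells for S2CK against P27NULL (37 and 20 UMIs) and -0.19 in melanotrophs. These differences were not tested, since each genotype is 1 library. Gonadotroph-like cells, in which Syt1 was lowest, gave 34.2%, 61.2% and 24.4% of the UMIs of that class in WT, P27NULL and S2CK, and the part of this share in the results was not tested.

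The melanotroph-like cells that missed the gate entered no comparison. In the same order of libraries the members summed there to 2758, 3376 and 3345 CPM, above the melanotroph sums of 2169, 2395 and 2006 CPM.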

How the results depend on the processing

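The called members numbered 17 to 23 against SC-like cells and 21 to 26 against other non-endocrine cells over the alternatives. Leaving out a library gave 17 to 21 and 21 to 23. The alternative with no filter could admit members that were untested in the main fit. Shares of all genes are not given for these ranges. The ranges therefore do not tell a change in the members from a change in all genes or in the number tested. Against other endocrine cells the 2 higher members became 1 with DESeq2, without the library term, with melanotroph-like clusters in place of the gate and against Pou1f1-lineage-like cells apart. The 2 lower members became 4 with only the 2 classes in the fit, 1 against corticotroph-like cells apart and 0 against Pou1f1-lineage-like cells apart, where Syp changed sign (0.035), and were 1 to 2 with a library left out, 1 without P27NULL. The cause was not tested.

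For P27NULL against WT the 4 members past the fold upward became 2 with TMM factors, with totals without Pomc, mitochondrial and ribosomal protein genes and with the stricter gate, and 0 among genes with at least 500 UMIs. The 2 downward became 1 after thinning, with clusters and without the highest doublet scores. The log2 ratio of the summed CPM, 0.14, became 0.065 with TMM factors, 0.055 with those totals, 0.083 after thinning and 0.17 within male cells. For S2CK against P27NULL the sum, -0.26, became -0.12, -0.13 and -0.21, and -0.14 within female cells, and the 10 members downward became 7 with TMM factors and with those totals and numbered 7 to 12 over the alternatives. For S2CK against WT the sum, -0.11, became -0.056 and -0.078 with the first 2, and the 2 members upward became 4 with each of them and 0 among genes with at least 500 UMIs.

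No paired analysis was possible because each genotype is 1 library, so there is 1 replicate number and nothing to pair within it. Depth limits the classes other than melanotrophs, where many members rest on fewer than 20 UMIs.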
